A study of Mus musculus with 6 samples.

Results

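The relaxin family genes examined here are Insl6, Insl3, Insl5 and Rln1, which encode peptide hormones, and Rxfp1 and Rxfp2, which encode receptors. They were taken by symbol as 6 of the 53700 gene identifiers counted in whole mouse testis. Insl6 was chosen because its count was lower in the libraries labelled cKO, and the other 5 were added as its family, so the difference of Insl6 between the groups is described without a test. Of the 6 genes, 5 had enough reads to enter the statistical fit and Rln1 did not.

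Testes were collected at postnatal day 45 from 3 mice labelled Msl3 wild type (WT) and 3 labelled as conditional knockouts of a floxed Msl3 allele (cKO), and total RNA was sequenced as single-end reads of 75 bp. All 6 mice carry the strain label Msl3em1Forni/C57BL/6J. Msl3 is an X-linked subunit of the male-specific lethal complex, a chromatin complex built around a histone acetyltransferase, and the question of the series is what its loss does to spermatogenesis. The recombinase line and the cells in which it acts are not given in the sources used here.

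Relaxin family hormones resemble insulin: each is cut from a precursor into an A and a B chain held together by disulfide bonds. Insl3 is the chief peptide hormone of Leydig cells and drives the descent of the fetal testis through its receptor Rxfp2, a leucine-rich repeat receptor that raises cAMP. Relaxin, the product of Rln1 in mice, signals through the related receptor Rxfp1, and Insl5 is a gut hormone whose receptor is Rxfp4. Insl6 is made mainly by germ cells of the testis, from the meiotic stages on, and no receptor is firmly established for it.

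The 4 hormone genes share the spacing of cysteine codons that fixes the B chain. The coding stretch from the first to the second of these codons spans 13 codons in each gene and lies within exon 1. It is shown here because it belongs to the B chain and shows how far the letters of the genes differ. The stretch was located by this spacing, so the spacing itself is no result. The sequences are from GENCODE M21 transcripts (GRCm38), written 5′ to 3′ on the coding strand, with the cysteine codons in capitals.
Insl6, chr19:29325181-29325219, minus strand: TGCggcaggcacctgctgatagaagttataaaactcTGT
Rln1, chr19:29334453-29334491, minus strand: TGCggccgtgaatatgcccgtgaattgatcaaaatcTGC
Insl3, chr8:71689342-71689380, plus strand: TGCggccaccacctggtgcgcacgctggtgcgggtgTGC
Insl5, chr4:103026570-103026608, minus strand: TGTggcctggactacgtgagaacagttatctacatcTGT

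Without gaps, Insl6 and Insl5 had the most letters in common, 24 of 39, and Rln1 and Insl3 the fewest, 18 of 39. Insl6 matched its chromosomal neighbour Rln1 at 21 of 39 letters. These counts include the letters of the cysteine codons, by which the stretches were located. None of the 678 stretches of 31 bases in the Insl6 transcript occurred in a transcript of another gene, and the same held for Insl5 and Rln1. For the receptors the share was 0.169% (Rxfp1) and 0.280% (Rxfp2). Insl3 was the exception, with 63.1% of its 31-base stretches also present in Jak3, a kinase gene of cytokine signalling.

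The libraries held 56991431 to 73766444 reads assigned to genes. Msl3 had 942 to 1226 reads in the libraries labelled WT and 829 to 1170 in those labelled cKO, and it was not called (log2 fold change -0.12, SE 0.088, edgeR adjusted p 0.551), so the labels are used as names only. All genes of the germ cell, Sertoli and Leydig marker lists had enough reads to be tested. Of the 6 epididymal markers 1 was tested, the others had too few reads, and Lcn8 had 0 reads in all 6 libraries. Over the whole table, 4 of 21902 genes (0.0183%), with 2 in each direction, were called, that is had an edgeR adjusted p under 0.05. The number called was 116, 2 and 1 without WT replicates 1, 2 and 3, and 628, 1 and 7 without cKO replicates 1, 2 and 3. DESeq2 called 209 of the 11711 genes for which it gave an adjusted p (1.78%).

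Insl6 (ENSMUSG00000050957) lies on chromosome 19 from 29321344 to 29325356 on the minus strand, with 2 exons and 708 exonic bases, none shared with another annotated gene. It had 8490, 10693 and 9484 reads in WT replicates 1 to 3 and 8850, 6379 and 7209 reads in cKO replicates 1 to 3. In CPM (reads per 1000000 reads of a library, after scaling for composition), its levels were 144, 165 and 153 in WT and 121, 114 and 123 in cKO. Every library labelled cKO was below every library labelled WT, and the replicates of a group lay close together (coefficient of variation 6.65% in WT and 4.14% in cKO).

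The mean of Insl6 was 154 ± 10.2 CPM (SD, n = 3) in WT and 120 ± 4.95 CPM (SD, n = 3) in cKO. The fit put cKO at 77.7% of WT (95% limits 69.8% to 86.5%), a log2 fold change of -0.36 (SE 0.071). It was not among the 4 genes called over the whole table. The log2 fold change was between -0.41 and -0.31 when any 1 library was left out. Of all tested genes, 1186 (5.42%) had a lower log2 fold change, and 8.85% had a group labelled cKO that lay wholly below WT. As the gene was chosen for this difference, these figures locate it and do not test it.

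**Figure D1:**
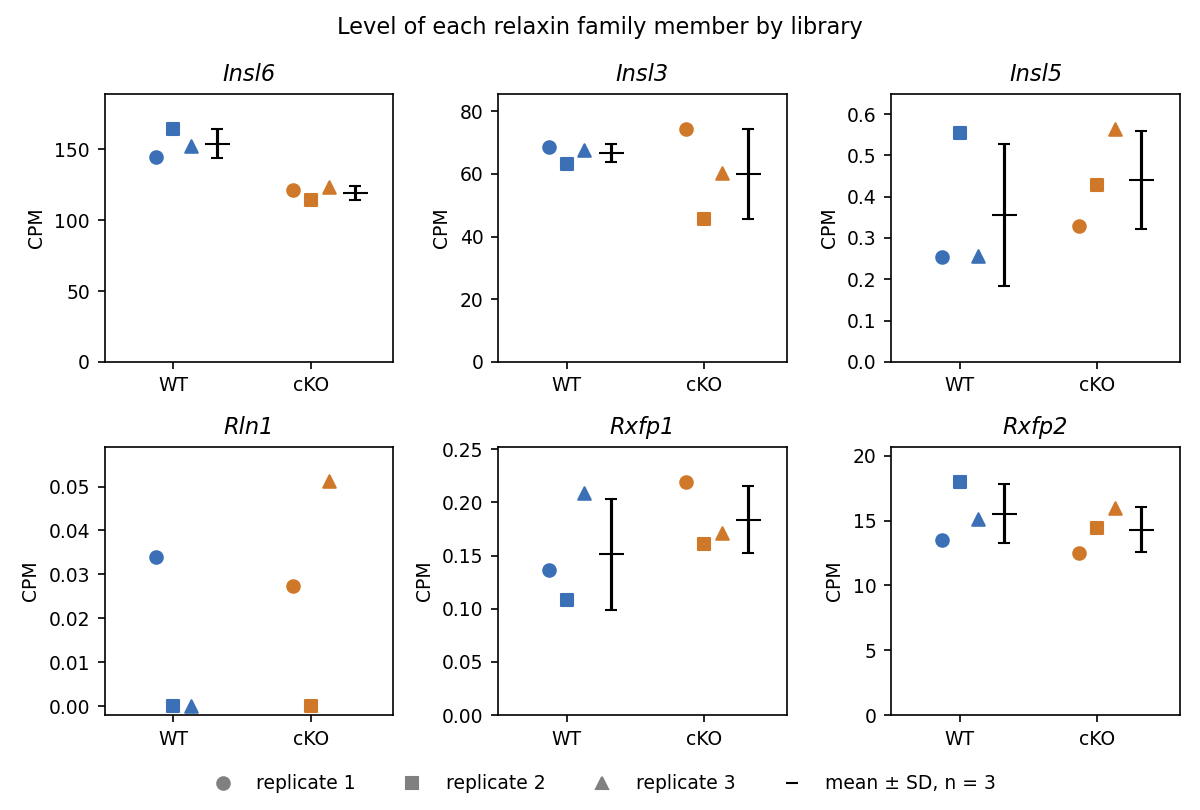
CPM of each of the 6 genes (vertical axes, each with its own scale) in the 3 WT (blue) and 3 cKO (orange) libraries, with symbols for replicates and the mean ± SD of each group at its right, except for Rln1. The groups are apart for Insl6, between 144 and 165 CPM in WT and between 114 and 123 in cKO, and overlap for the other 5. Insl6 was chosen for its difference.

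Insl3 (ENSMUSG00000079019) lies on chromosome 8 from 71689214 to 71690575 on the plus strand. It had 4035, 4103 and 4210 reads in WT replicates 1 to 3 and 5425, 2554 and 3520 reads in cKO replicates 1 to 3. These are 68.6, 63.2 and 67.7 CPM in WT and 74.4, 45.6 and 60.3 CPM in cKO. The libraries labelled cKO held both the highest and the lowest level of the hormone, and the WT range lay inside the cKO range. The coefficient of variation was 4.36% in WT and 23.9% in cKO, a difference in spread that was not tested.

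The fit put Insl3 in cKO at 90.4% of WT, between 73.9% and 110.6% at 95% confidence, with a log2 fold change of -0.15 (SE 0.13, edgeR adjusted p 0.660). The sign rested on 1 library: without cKO replicate 2 the log2 fold change was 0.02 (edgeR adjusted p 0.955), and without cKO replicate 1 it was -0.33 (edgeR adjusted p 0.110).

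The count of Insl3 covers only part of the gene. Exon 2, with 404 of its 623 exonic bases (64.8%), is annotated in GENCODE M21 also as the last exon of Jak3, on the same strand, and the tables count reads that fall in more than 1 gene apart, as ambiguous. Under this annotation the 219 bases of exon 1 belong to Insl3 alone. Jak3 itself had 10.2 to 14.5 CPM in WT and 11.1 to 14.1 CPM in cKO, with a log2 fold change of 0.03 (SE 0.13, edgeR adjusted p 0.935) that turned to -0.08 without WT replicate 2 and -0.07 without cKO replicate 1. The annotation behind the counts is not given in the sources used here, so whether the values of Insl3 leave out exon 2 rests on its having the same overlap.

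**Figure D2:**
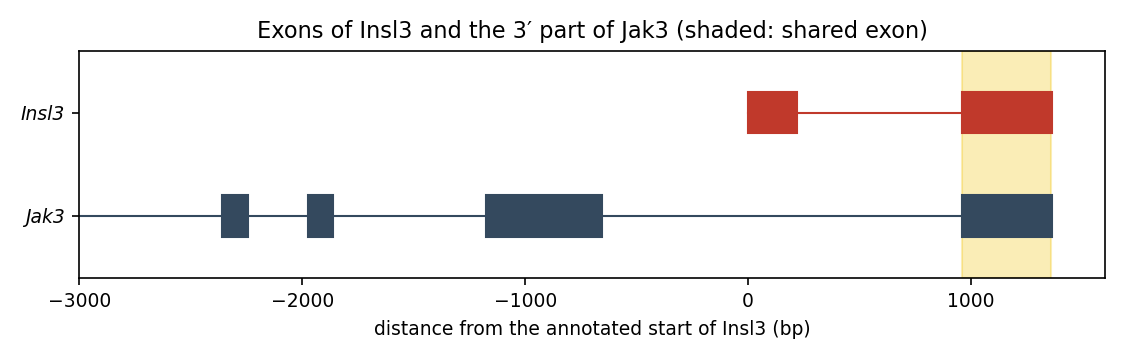
Exons (boxes) of Insl3 and of the 3′ part of Jak3 along the distance in bp from the annotated start of Insl3, with introns as lines. The shaded exon of 404 bp, from 958 to 1361 bp, is common to both genes, and the first exon of Insl3, 219 bp, is its own.

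Insl5 (ENSMUSG00000066090, chromosome 4, 103017872 to 103026842, minus strand) was detected in every library at a low level. It had 15, 36 and 16 reads in WT replicates 1 to 3 and 24, 24 and 33 reads in cKO replicates 1 to 3. Its levels were 0.255, 0.555 and 0.257 CPM in WT and 0.329, 0.429 and 0.565 CPM in cKO. WT replicate 2 stood at the level of the highest cKO library while the other WT libraries were lowest. The log2 fold change was 0.28 (SE 0.34, edgeR adjusted p 0.757), and the cKO level lay between 72.2% and 204.2% of WT at 95% confidence. These limits are wide, and the size of change that could have been detected was not computed. Leaving out 1 library moved the log2 fold change between 0.07, without cKO replicate 3, and 0.76, without WT replicate 2 (edgeR adjusted p 0.671), and it was also low without WT replicates 1 (0.09) and 3 (0.08) and high without cKO replicate 1 (0.47).

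Rln1 (ENSMUSG00000039097, chromosome 19, 29331170 to 29334670, minus strand) had 2, 0 and 0 reads in WT replicates 1 to 3 and 2, 0 and 3 reads in cKO replicates 1 to 3. A count of 0 allows up to 3 reads, which is 0.0411 to 0.0536 CPM in these libraries. The mouse relaxin gene was thus at or near the limit of detection in both groups, although it is the next protein-coding gene to Insl6 on the same strand. No fold change is given for it.

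Of the receptors, Rxfp2 (ENSMUSG00000053368, chromosome 5, 150018675 to 150082184, plus strand) had 793, 1168 and 941 reads in WT replicates 1 to 3 and 914, 807 and 934 reads in cKO replicates 1 to 3. The levels of this Insl3 receptor were 13.5, 18.0 and 15.1 CPM in WT and 12.5, 14.4 and 15.99 CPM in cKO. The groups overlapped, with the highest library in WT and the lowest in cKO. The fit put cKO at 91.9% of WT, between 77.0% and 109.7% at 95% confidence (log2 fold change -0.12, SE 0.12, edgeR adjusted p 0.679). Leaving out 1 library moved the log2 fold change between -0.21, without WT replicate 1, and -0.0028, without WT replicate 2.

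The antisense gene Gm42557 covers 294 exonic bases of Rxfp2 on the opposite strand. It had 34, 56 and 37 reads in WT replicates 1 to 3 and 32, 32 and 14 in cKO replicates 1 to 3, with the cKO libraries below the WT libraries. Its log2 fold change was -0.71 (SE 0.30, edgeR adjusted p 0.333), and it was not called. The minor strand column held 2.91% to 6.60% of the stranded reads of Rxfp2, compared with 3.84% to 4.01% over all genes, and 0.0157% to 0.0706% for Insl6.

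Rxfp1 (ENSMUSG00000034009, chromosome 3, 79641611 to 79737880, minus strand), the relaxin receptor, had 8, 7 and 13 reads in WT replicates 1 to 3 and 16, 9 and 10 reads in cKO replicates 1 to 3. Its levels were 0.108 to 0.209 CPM in WT and 0.161 to 0.219 CPM in cKO, with overlap. The log2 fold change was 0.30 (SE 0.37, edgeR adjusted p 0.760), and the 95% limits ran from 70.0% to 216.3% of the WT level. The log2 fold change was 0.10 without WT replicate 2, 0.14 without cKO replicate 1 and 0.60 without WT replicate 3 (edgeR adjusted p 0.777). Both parts of the relaxin pair, hormone and receptor, were thus counted in at most 16 reads per library.

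The remaining hormone and receptors of the family were below the filter on low counts. Rln3, a relaxin best known from the brain, had 4 to 8 reads in each of the 6 libraries. Rxfp3, the receptor of Rln3, had 1 read in WT replicate 2 and 0 in the other libraries. Rxfp4, the receptor of Insl5, had 0 reads in all 6 libraries, which allows up to 3 reads in each.

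Of the 4 tested family members not chosen by their values (Insl3, Insl5, Rxfp1 and Rxfp2), 0 passed the edgeR threshold over all genes, where 0.0183% of all tested genes did. At an unadjusted edgeR p under 0.05 there were also 0 of 4, with 13.9% of all tested genes below that value. The groups overlapped in all 4, and 18.9% of all tested genes had groups without overlap. DESeq2 called 0 of them, giving an adjusted p to Insl3 (0.563) and Rxfp2 (0.618) only.

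**Figure D3:**
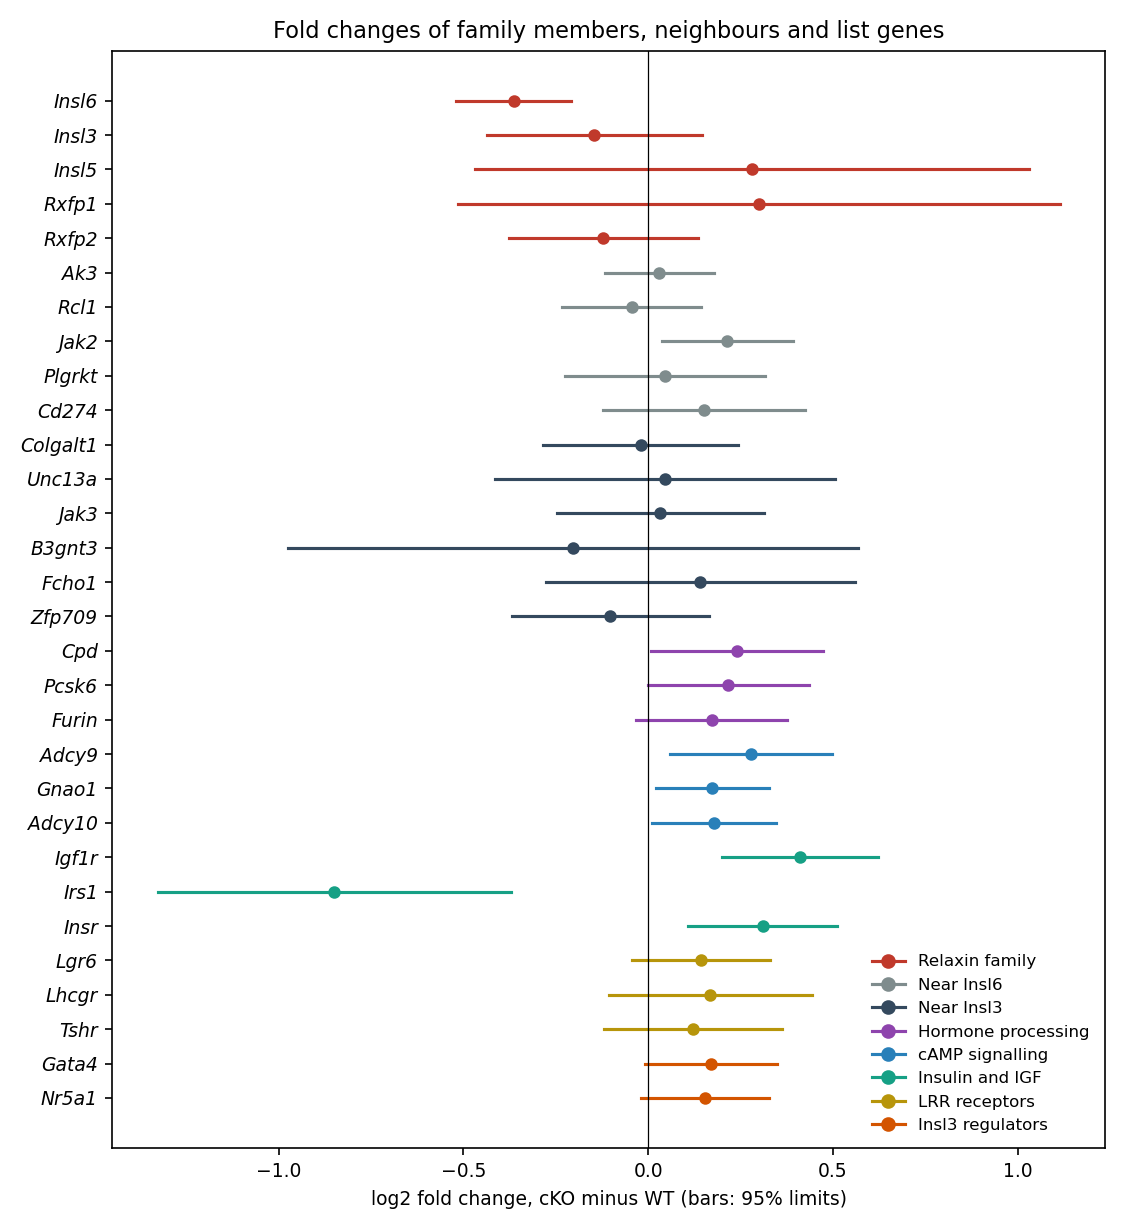
Fitted log2 fold change of cKO minus WT (points, horizontal axis) with 95% limits (bars) for the 5 tested family genes, the tested neighbours of Insl6 and Insl3, and genes named from each pathway list. Insl6, chosen for being lower in cKO, lies at -0.36, and its limits are no test. The limits of the other 4 family genes cross 0, and those of Insl5 and Rxfp1 are the widest of the family.

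The levels of the genes were compared per length, as CPM per kb of annotated exon, averaged over the 3 WT libraries. Ranks were taken among tested genes with an annotated length, so genes below the filter on low counts were left out. Insl6 stood at 217 ± 14.5 (SD, n = 3), a level that 98.96% of the 21853 ranked genes lay below. Insl3 followed at 107 ± 4.65 (SD, n = 3) with 97.3% of genes below it, Rxfp2 at 2.73 ± 0.401 (SD, n = 3) with 52.2% below it, and Insl5 at 0.491 ± 0.238 (SD, n = 3) with 24.1% below it. Rxfp1 stood at 0.0150 ± 0.0052 (SD, n = 3), with 0.0595% of ranked genes below it, and Rln1 did not exceed 0.0147 in any library.

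Neighbours in this order did not overlap over the 6 libraries, except Rxfp1 and Rln1. The order of the first pair depends on the length taken for Insl3. Divided by the 219 bases that it does not share with Jak3, its WT level was 304 ± 13.2 CPM per kb (SD, n = 3), above that of Insl6, and over the 6 libraries the ranges then overlapped (208 to 340 for Insl3 and 161 to 233 for Insl6). Both hormones were among the more abundant transcripts, while the receptor Rxfp2 was about 79.6 times lower per length than Insl6 in WT.

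None of the tested genes around Insl6 on chromosome 19 was called, and none had cKO libraries wholly below WT. Within 3 protein-coding places lie Ak3, Rcl1 and Jak2 on one side and Rln1, Plgrkt and Cd274 on the other. Ak3, a mitochondrial adenylate kinase, had a log2 fold change of 0.03 (SE 0.067), and Rcl1, a ribosomal RNA processing factor, -0.04 (SE 0.087). Jak2, a cytokine receptor kinase transcribed from the opposite strand, had 12.01, 12.04 and 12.5 CPM in WT and 13.2, 14.2 and 14.9 CPM in cKO. All its cKO libraries were above WT, with a log2 fold change of 0.21 (SE 0.081), but it was not called (edgeR adjusted p 0.309).

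Plgrkt, a plasminogen receptor, and Cd274, the immune checkpoint ligand PD-L1, had log2 fold changes of 0.05 and 0.15, with overlapping groups. Plgrkt turned to -0.05 without cKO replicate 3. Around Insl3 on chromosome 8, the tested neighbours Colgalt1, Unc13a, Jak3, B3gnt3, Fcho1 and Zfp709 had log2 fold changes from -0.20 to 0.14, none called (edgeR adjusted p of at least 0.749) and all with overlapping groups.

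Insl6 was then set beside marker lists of the germ cells that make it. In whole tissue, fewer cells of a type and less RNA per cell cannot be told apart. The 10 round spermatid markers summed to 1815 to 1867 CPM in WT and 1626 to 1764 CPM in cKO, without overlap. Of them, 9 were lower and 1 higher in cKO, with a median log2 fold change of -0.15 against 0.0031 over all tested genes. None was called by edgeR over all genes, 4 of 10 were lower at an unadjusted p under 0.05, and DESeq2 called 2, beside 13.9% and 1.78% of all genes in either direction. The part of this list in the values of Insl6 was not tested. The 10 pachytene spermatocyte markers summed to 9864 to 10381 CPM in WT and 9615 to 10638 CPM in cKO, with overlap and a median log2 fold change of 0.05. Of these, 7 were higher and 3 lower, or 5 and 5 with library totals alone. Elongating spermatid markers summed to 20186 to 22171 CPM in WT and 17806 to 21096 CPM in cKO, also with overlap. Of these 10 markers, 5 were lower and 5 higher, with a median log2 fold change of -0.06. None was called by edgeR, 2 were lower and 0 higher at an unadjusted p under 0.05, and DESeq2 called 2, beside the same shares of all genes. With library totals alone, 8 of these 10 were lower and 2 higher, with a median log2 fold change of -0.09.

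As a share of the round spermatid sum in the same library, Insl6 was 7.96%, 8.82% and 8.26% in WT replicates 1 to 3 and 6.88%, 7.01% and 7.43% in cKO replicates 1 to 3. The groups stayed apart, and the mean log2 ratio of cKO minus WT was -0.23, beside -0.36 for Insl6 itself. As a share of the pachytene sum it was 1.39%, 1.67% and 1.52% in WT and 1.14%, 1.19% and 1.28% in cKO, again apart, with a difference of -0.35 in the log2 ratio. Ldhc is the largest part of the pachytene sum, with 3810 to 3930 CPM in WT and 3419 to 3847 CPM in cKO. These ratios inherit the choice of Insl6 and carry no test.

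The Leydig cell list was set beside Insl3 in the same way. Its 8 genes, which act in steroid synthesis and its control and include Nr5a1 and Lhcgr of the lists below, summed to 1026, 938 and 863 CPM in WT replicates 1 to 3 and 1020, 808 and 891 CPM in cKO replicates 1 to 3, with overlap. cKO replicate 2, the lowest library for Insl3, was also the lowest for this sum. As a share of the sum, Insl3 was 6.69%, 6.74% and 7.84% in WT and 7.29%, 5.65% and 6.76% in cKO. The log2 ratio differed by -0.12 between the groups, less than the SD within either (0.13 in WT and 0.19 in cKO, n = 3 each), with a two-sided exact permutation p of 0.6, the smallest possible being 0.1. Of the 8 Leydig markers 0 were called by edgeR and 1 by DESeq2, and 2 were lower and 0 higher at an unadjusted p under 0.05, beside 0.0183%, 1.78% and 13.9% of all genes. The median log2 fold change of the list was -0.08. Macrophages, which sit among Leydig cells, had markers summing to 110 to 127 CPM in WT and 112 to 124 CPM in cKO. Of these 8 genes 7 were lower, with a median log2 fold change of -0.22. The 1 higher gene, Mrc1, is the largest part of the sum, with 46.3 to 49.3 CPM in WT and 51.9 to 60.5 CPM in cKO. None was called by edgeR and 1 by DESeq2, and 3 were lower and 1 higher at an unadjusted p under 0.05, beside the same shares of all genes. The part of either list in the values of Insl3 was not tested.

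**Figure D4:**
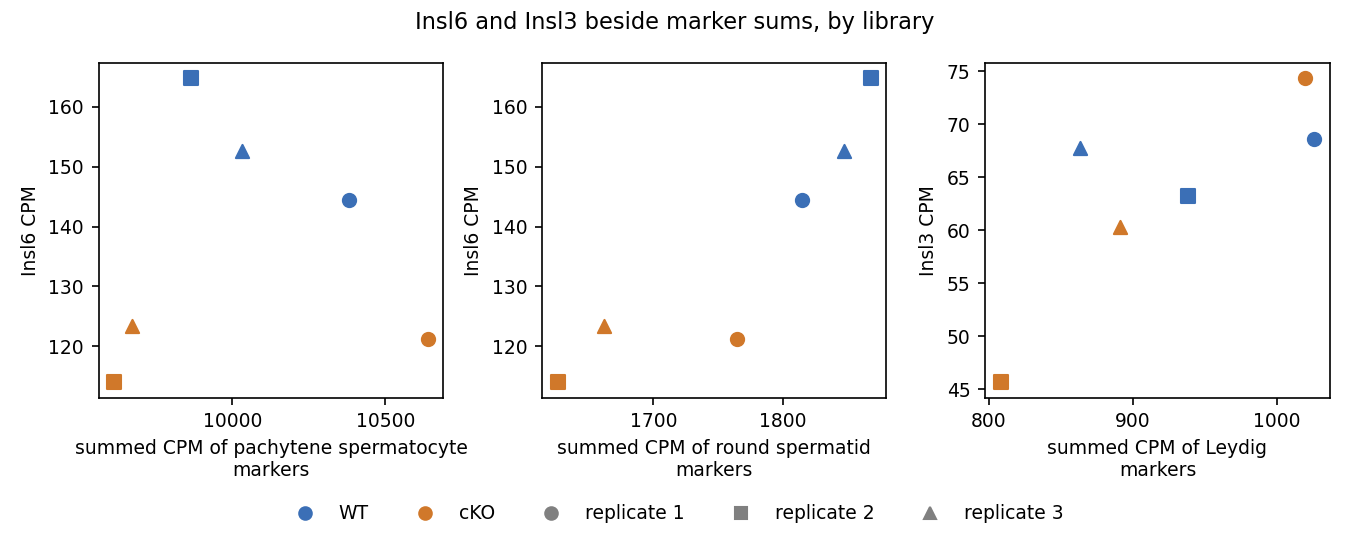
Level in CPM of Insl6 (left and middle) and Insl3 (right) against the summed CPM of pachytene, round spermatid and Leydig markers in the same library, with WT in blue, cKO in orange and symbols for replicates. The axes do not start at 0. Round spermatid sums are 1626 to 1764 CPM in cKO and 1815 to 1867 CPM in WT, whereas the pachytene and Leydig sums of the groups overlap.

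The enzymes that cut and trim peptide hormones were measured in full, with all 10 genes of the list tested. None was called by edgeR, 1 was higher and 0 lower at an unadjusted p under 0.05, with 13.9% of all tested genes below that value, and the median log2 fold change was 0.03. Library totals without further scaling turned that median to -0.0015. The lowest p belonged to Cpd, a carboxypeptidase that removes basic residues, with 46.9, 51.9 and 48.6 CPM in WT and 47.5, 66.8 and 59.9 CPM in cKO (log2 fold change 0.24, SE 0.11, edgeR adjusted p 0.350). Cpd passed only without cKO replicate 1 (0.37, edgeR adjusted p 0.0273), where 628 genes were called over the whole table. The proprotein convertases Pcsk6 and Furin followed with 0.22 (SE 0.10) and 0.17 (SE 0.094), both with overlapping groups.

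Of 32 genes of the cAMP pathway by which Rxfp1 and Rxfp2 signal, 31 were tested. None was called by edgeR or DESeq2. At an unadjusted p under 0.05, 3 of 31 were higher and 0 lower, beside 13.9% of all tested genes in either direction. The median log2 fold change was 0.10, with 27 genes higher and 4 lower, beside 0.0031 over all tested genes. With library totals alone these medians were 0.07 and -0.02. Over all tested genes, 11102 of 21902 were higher. Some marker lists also had medians above 0: spermatogonia 0.10 (8 of 10 genes higher), Sertoli cells 0.08 (8 of 8, or 7 with library totals alone), endothelium 0.25 (5 of 5) and pachytene spermatocytes 0.05 (7 of 10). Other lists had medians below 0: peritubular myoid cells -0.04 (1 of 5 higher), Leydig cells -0.08 (3 of 8), round spermatids -0.15 (1 of 10), elongating spermatids -0.06 (5 of 10) and macrophages -0.22 (1 of 8). The part of these lists in the cAMP values was not tested. The adenylyl cyclase Adcy9 had 7.84, 8.71 and 7.92 CPM in WT and 8.79, 10.2 and 10.7 CPM in cKO (log2 fold change 0.28, SE 0.10, edgeR adjusted p 0.306). The soluble adenylyl cyclase Adcy10, which is abundant in male germ cells, had 355 to 363 CPM in WT and 365 to 447 CPM in cKO, and the G protein subunit Gnao1 43.4 to 47.6 CPM and 49.1 to 53.9 CPM. In these 3 genes the cKO libraries lay above the WT libraries without overlap. In all, 4 of the 31 genes had groups without overlap (Adcy4, another adenylyl cyclase, is the other, named after its values were seen), beside 18.9% of all tested genes. The summed level of the list was 2223 to 2355 CPM in WT and 2379 to 2418 CPM in cKO, also apart. This gap rests on Adcy10, the most abundant gene of the list. In the closest libraries, WT replicate 1 and cKO replicate 2, the sums were 2355 and 2379 CPM. Of these, Adcy10 made up 363 and 447 CPM.

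The insulin and IGF list holds hormones related to the relaxin hormones, with their receptors, adaptors and binding proteins, and had 15 of 19 genes tested. Of its hormones, Igf1 and Igf2 were tested, with log2 fold changes of -0.03 (SE 0.20) and -0.04 (SE 0.29). None was called by edgeR over all genes, 4 were higher and 1 lower at an unadjusted p under 0.05, and DESeq2 called 1, beside 13.9% and 1.78% of all genes. The groups did not overlap for 6 of the 15, beside 18.9% of all tested genes. Ins1 had 0 reads in all 6 libraries. The median log2 fold change was 0.07, with 8 genes higher and 7 lower.

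None of the following 3 genes, those with the lowest p of the list, passed the edgeR test. Igf1r, the IGF receptor, had 21.2, 20.7 and 19.1 CPM in WT and 23.2, 30.2 and 27.8 CPM in cKO (log2 fold change 0.41, SE 0.097, edgeR adjusted p 0.276), and it was the gene that DESeq2 called (adjusted p 0.0211). Insr, the insulin receptor, had 17.8, 20.4 and 17.99 CPM in WT and 20.6, 24.1 and 25.1 CPM in cKO (log2 fold change 0.31, SE 0.093, edgeR adjusted p 0.288). Irs1, the adaptor that docks on both receptors, differed the other way, with 2.77, 5.49 and 3.88 CPM in WT and 2.67, 2.14 and 1.90 CPM in cKO. Its log2 fold change was -0.85 (SE 0.22, edgeR adjusted p 0.276), and WT replicate 1 nearly met the highest cKO library. Without cKO replicate 1, where 628 genes were called over the whole table, edgeR called all 3. The adjusted p was 0.00928 for Igf1r, 0.0340 for Insr and 0.0402 for Irs1. Without WT replicate 1, where 116 genes were called, edgeR called Irs1 (adjusted p 0.0243). Without a filter on low counts, where 757 genes were called, Igf1r and Irs1 were among them (edgeR adjusted p 0.0016 and 3.05e-06).

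The leucine-rich repeat receptors related to Rxfp1 and Rxfp2 were Lgr4, Lgr5, Lgr6 and the gonadotropin and thyrotropin receptors, with 5 of 6 tested. None was called by edgeR or DESeq2 and none had an unadjusted p under 0.05. All 5 were higher, with a median log2 fold change of 0.12, beside 0.0031 over all tested genes. The groups did not overlap for 1 of the 5 (Lgr6), beside 18.9% of all tested genes. Lgr6, Lhcgr (the luteinizing hormone receptor of Leydig cells) and Tshr had log2 fold changes of 0.14, 0.17 and 0.12, with edgeR adjusted p of 0.471 to 0.655. Leaving out WT replicate 3 brought Lhcgr to 0.0074, and leaving out WT replicate 2 brought it to 0.30. The value of Tshr was 0.028 without cKO replicate 2 and 0.048 without WT replicate 3. Of the 7 transcription factors known to act on the Insl3 promoter, 0 were called by edgeR or DESeq2, and 0 had an unadjusted edgeR p under 0.05. Of these factors, 6 were higher and 1 lower, with a median log2 fold change of 0.11. The groups did not overlap for 1 of the 7, beside 18.9% of all tested genes. The lowest p-values were those of Gata4, a zinc finger factor of the gonad (log2 fold change 0.17, SE 0.082), and Nr5a1, a nuclear receptor that drives steroidogenic genes (log2 fold change 0.15, SE 0.079), and the groups overlapped in both.

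**Figure D5:**
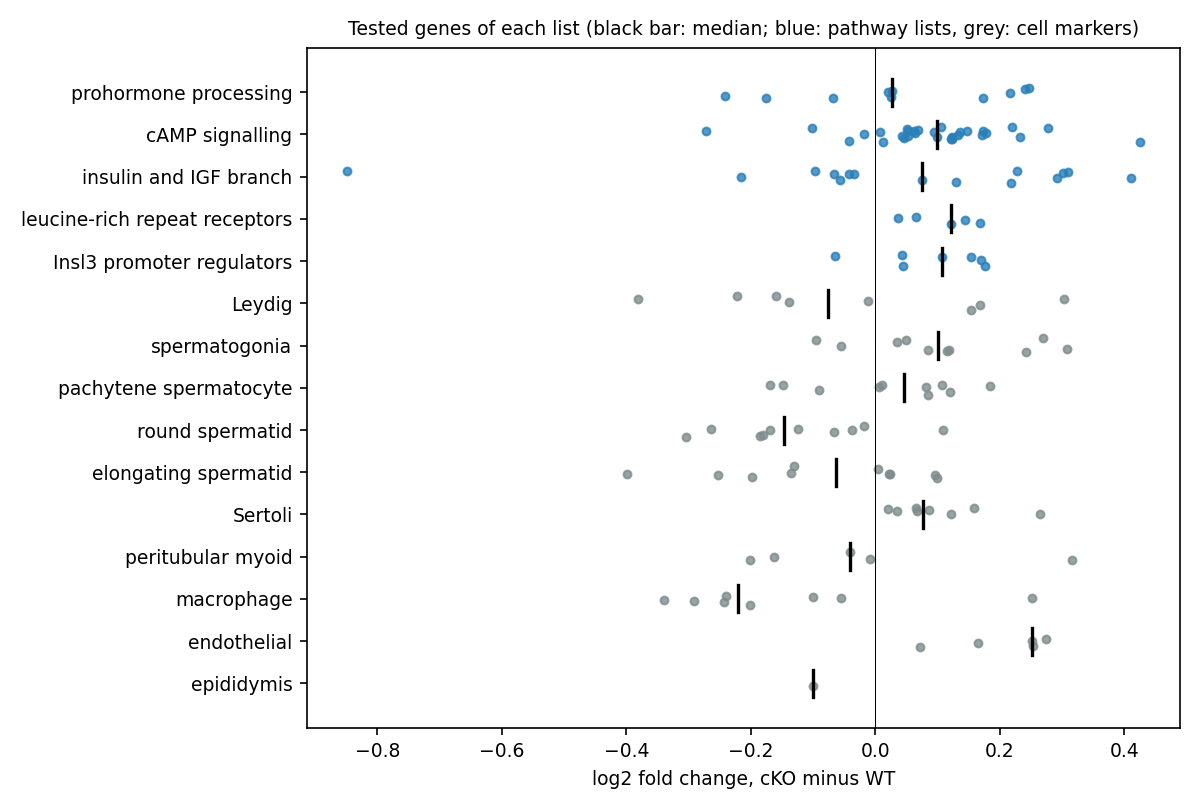
Log2 fold change of cKO minus WT (horizontal axis) of each tested gene in the pathway lists (blue) and cell marker lists (grey), with the list median as a black bar. Medians are 0.10 for the cAMP list, 0.12 for leucine-rich repeat receptors, 0.11 for Insl3 promoter regulators and -0.15 for round spermatids. The insulin and IGF list is spread from -0.85 (Irs1) to 0.41 (Igf1r).

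The genes whose levels ran most nearly parallel to Insl6 over the 6 libraries were sought among the 10050 tested genes that averaged 10 CPM or more. By Pearson correlation of log2 CPM they were Dtymk, Chchd6, Arl1, Lancl1 and Jam3, with r from 0.993 to 0.996. Their WT libraries lay above their cKO libraries, which the likeness to Insl6 fixes and which is no separate result. Chchd6, a mitochondrial inner membrane protein, had the largest log2 fold change of these, -0.30, and Jam3, a junction protein, the smallest, -0.07. High values of r were frequent over so few libraries: 141 genes exceeded 0.95. For Insl3 they were Rplp2, 1700027A15Rik, Hrasls5, 1700001O22Rik and Wdr74, with r from 0.992 to 0.998, and 71 genes exceeded 0.95. The choice by likeness gives them the order of libraries of Insl3, with cKO replicate 1 highest and cKO replicate 2 lowest.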

How the data were processed

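The authors deposited 1 table of raw read counts per library, with no normalisation. STAR, HTSeq, DESeq2 and the build mm10 are named in the submitters' processing notes, without roles or versions, and the annotation release and strand protocol are not given in the sources used here. Lines for reads outside single genes (14.8% to 16.7% of a library) were left out. The strand column holding 96.0% to 96.2% of stranded reads was used. Symbols, exons and transcript sequences came from GENCODE M21 (GRCm38, the same build as mm10), which held 52147 of the 53700 identifiers.

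Testing used edgeR 4.0.16 in R 4.3.3: counts were filtered by filterByExpr (minimum count 10), scaled by TMM and fitted without covariates, and the two-sided quasi-likelihood F test was adjusted by Benjamini-Hochberg over all 21902 genes (threshold 0.05). The common biological coefficient of variation was 8.79%. Standard errors were derived from the F statistic. Replicates are labelled as biological, and all replicate pairs differed by more than sampling noise (mean chi-square per gene of at least 8.75). The procedure was tested on simulated counts.

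Alternatives were RLE scaling, library totals alone, 2 other filters on low counts, DESeq2 1.42.0, counts from both strands, the replicate number as a block, a robust quasi-likelihood fit, a threshold of 0.1, each library left out in turn, and for marker ratios the geometric mean of the list. Named are the family, overlapping genes, protein-coding genes within 3 places of Insl6 and Insl3, the 3 lowest p per pathway list where none passed (1 of these genes is not reported here), and the 5 genes most correlated with Insl6 and with Insl3. Members and lists were chosen with earlier results of these data known.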

Additional observations from a re-analysis of the deposited data

How the results depend on the processing

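Insl6 stayed lower in cKO in the 14 alternatives fitted, with log2 fold changes from -0.41 to -0.31. Its ratios to pachytene (-0.41 to -0.28) and round spermatid markers (-0.27 to -0.19) stayed lower in 8 alternatives each. These alternatives reuse the values by which Insl6 was chosen, so they describe its difference and do not test it. No alternative called Insl3, Insl5, Rxfp1 or Rxfp2, whose adjusted p ranged from 0.110 to 0.998 in edgeR or DESeq2. The log2 fold change of Insl3 turned to 0.019 without cKO replicate 2, the range over left-out libraries being -0.33 to 0.019. Rxfp1 could not be fitted with at least 10 reads in every library, and Rln1 entered only the fit without a filter.

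The count of genes past the threshold, 4, was 757 without a filter on low counts, 2 with unstranded counts, 209 with DESeq2 and 1 to 628 over the left-out libraries; the cause was not tested. Deviations of same-numbered libraries from their group means had correlations of 0.38, 0.26 and -0.07. These values do not settle whether the numbers pair the mice. The replicate block gave 49 genes and changed no call of a family member. With it, Insl3 had a log2 fold change of -0.17 (SE 0.089, edgeR adjusted p 0.313). Near 0, signs of neighbours of Insl6 and Insl3 turned, with these ranges of the log2 fold change over left-out libraries. Plgrkt ranged from -0.053 (without cKO replicate 3) to 0.12. Colgalt1 ranged from -0.11 to 0.11, positive without WT replicate 1 (0.09) and cKO replicate 2 (0.11). Unc13a ranged from -0.030 to 0.15, negative without WT replicates 1 (-0.01) and 2 (-0.0012) and cKO replicate 2 (-0.030). Jak3 ranged from -0.078 to 0.18, negative without WT replicate 2 (-0.078) and cKO replicate 1 (-0.07). B3gnt3 ranged from -0.37 to 0.027 (without cKO replicate 3) and Fcho1 from -0.037 (without cKO replicate 1) to 0.33. Reads per library limit Insl5, Rxfp1 and Rln1, and the exon shared with Jak3 limits Insl3.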
